A study of Mus musculus with 12 samples.

Results

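miR-144-3p and miR-451a are the mature products of a microRNA cluster that red blood cell precursors express at a high level, and their levels were examined in 12 small RNA libraries of mouse serum. The members were fixed by accession: MIMAT0000156 (miR-144-3p) and MIMAT0001632 (miR-451a) in the mouse tables, MIMAT0000436 and MIMAT0001631 in the human tables. They are 4 of the 1340 miRNA entries of the series, which holds 874 mouse and 466 human entries. The cluster was chosen by its lower share of miRNA counts after tumor cell injection, so that contrast is described here with no test.

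Serum came from 3 female athymic NCr nude mice (mice 1046, 1047 and 1069), each bled once before and once 2 weeks after an orthotopic injection of SH-SY5Y cells below the capsule of the kidney, given at an age of 4 to 6 weeks. SH-SY5Y is an established human neuroblastoma line, and these mice lack a thymus but keep their own red blood cells. RNA from 50 μl of each serum was divided into 2 aliquots, of which 1 was depleted of 5′ tRNA fragments with biotinylated DNA probes and streptavidin beads. This gave 4 groups of 3 libraries: before injection undepleted, before injection depleted, after injection undepleted and after injection depleted. No mice without tumor cells were bled at the later time among the samples analysed here, so tumor growth, surgery, a repeated bleeding and elapsed time cannot be told apart.

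In mammals miR-144 and miR-451a are transcribed together as one precursor under the control of the erythroid factor GATA1. miR-144 is cut by Drosha and Dicer like most miRNAs. The hairpin of miR-451a is too short for Dicer and is cut by the slicing activity of Ago2. Red blood cells keep both miRNAs after losing their nucleus and release them when they lyse, so the ratio of miR-451a to miR-23a-3p, a miRNA that red blood cell lysis affects little, is commonly read as a sign of hemolysis in serum.

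The mature sequences show what was counted, with the seed (bases 2 to 8, the part that pairs with target mRNAs) in capitals. All sequences are those of RefSeq on GRCm38.p6, and miR-144-5p is the other strand of the miR-144 hairpin.
mmu-miR-144-3p: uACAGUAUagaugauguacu
mmu-miR-144-5p: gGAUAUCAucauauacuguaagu
mmu-miR-451a: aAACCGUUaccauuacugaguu
mmu-miR-23a-3p: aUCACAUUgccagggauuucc
The seeds of the members differ, and neither seed is found in another of the 1679 mature mouse miRNA names in the table. Over the shorter stretch of bases 2 to 7, miR-144-3p shares its letters with miR-101a-3p, and miR-451a with none.

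The hairpins are printed to show where each mature form lies, with the mature bases in capitals.
Mir144: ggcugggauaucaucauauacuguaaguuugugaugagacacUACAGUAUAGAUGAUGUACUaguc
Mir451a: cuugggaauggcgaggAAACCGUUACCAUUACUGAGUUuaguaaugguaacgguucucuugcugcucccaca
miR-144-3p takes bases 43 to 62 of a hairpin of 66 bases, in its 3′ arm. miR-451a takes bases 17 to 38 of a hairpin of 72 bases, so it starts in the 5′ arm and runs past the middle of the hairpin. In GRCm38 the hairpins lie on the plus strand of chromosome 11, Mir144 from 78073005 to 78073070 and Mir451a from 78073170 to 78073241, with 99 bases between them. GENCODE M21 places no exon or intron of a protein-coding gene over either hairpin, and the nearest protein-coding gene, Eral1, lies on the minus strand with its 3′ end 134 bases beyond Mir451a. Mir451b is annotated on the minus strand over the same 72 bases as Mir451a, but the mature intervals of miR-451a and miR-451b share 0 bases.

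The mouse tables held 21235 to 97183 counts in undepleted and 938706 to 2271549 in depleted libraries, and the undepleted aliquot of mouse 1069 before injection was the smallest. Levels are given as shares of a library's mouse miRNA counts unless stated otherwise. Shares are relative: a lower share can mean fewer copies of a miRNA or more copies of the others, and the number of lysed cells and the RNA each releases cannot be told apart. 95% Wilson intervals cover counting error only.

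By read counts miR-451a was among the most abundant miRNAs of every serum, ranking between first and 7 in the 12 mouse tables. In the human tables it was never first and ranked between 2 and 8, behind miR-486-5p. That entry had 1293394 reads in the depleted library of mouse 1046 before injection, where miR-451a, the largest mouse entry, had 193462. No mouse entry of that library was as large as miR-486-5p, so ranks and shares depend on the table used. In depleted libraries before injection miR-451a held 14.3% of the mouse counts in mouse 1046, 15.7% in mouse 1047 and 11.3% in mouse 1069. After injection the same mice had 8.37%, 7.05% and 5.47%. All 3 values after injection lay below all 3 before it, a pattern shared by 10.8% of the 305 mouse miRNAs with at least 4 counts in each of these libraries. The mean share was 13.8% ± 2.29 before and 6.96% ± 1.45 after injection (SD, n = 3 each), and within mice the level was 1.71-, 2.23- and 2.06-fold lower, a mean log2 change of -0.99 ± 0.20 (SD, n = 3).

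The undepleted aliquots of the same sera gave 10.1%, 11.8% and 9.45% for miR-451a before injection in mice 1046, 1047 and 1069. After injection they gave 6.04%, 4.69% and 3.69%. These groups did not overlap either, as was the case, in the same direction, for 19.3% of 109 miRNAs. The mean log2 change was -1.14 ± 0.34 (SD, n = 3). Counting error of miR-451a was small, with a 95% Wilson interval of at most 4.50% of the share to either side.

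**Figure D1:**
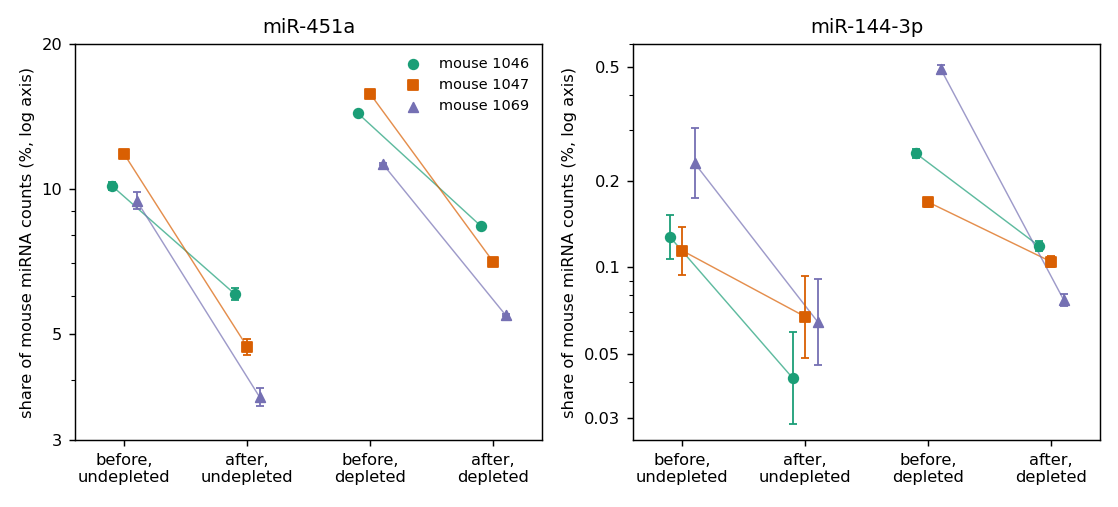
Share of mouse miRNA counts (percent, log axis) held by miR-451a (left) and miR-144-3p (right) in each of the 12 libraries, with a line joining the sera of 1 mouse and bars for the 95% Wilson interval. Every line slopes downward from before to after injection; for miR-144-3p mouse 1069 starts highest in both aliquots, for miR-451a lowest.

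miR-144-3p, released from the same transcript, had far fewer reads and ranked between 30 and 87. Its share in depleted libraries before injection was 0.249% in mouse 1046, 0.169% in mouse 1047 and 0.492% in mouse 1069. After injection it was 0.119%, 0.105% and 0.0773%. The groups did not overlap, as was the case, in the same direction, for 10.8% of 305 miRNAs. The size of the change varied widely, with 2.10-, 1.61- and 6.37-fold lower shares in the 3 mice. The mean log2 change of -1.48 ± 1.05 (SD, n = 3) rested in good part on mouse 1069, and was -0.88 without it.

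In undepleted libraries miR-144-3p was counted only 28 to 124 times. Before injection its share was 0.128% (95% Wilson interval 0.107 to 0.152) in mouse 1046, 0.114% (0.0944 to 0.139) in mouse 1047 and 0.231% (0.175 to 0.305) in mouse 1069. After injection it was 0.0411% (0.0284 to 0.0594), 0.0674% (0.0484 to 0.0937) and 0.0647% (0.0459 to 0.0913). The interval of mouse 1069 before injection did not meet those of the other mice, as in the depleted aliquot, whereas the 3 intervals after injection overlapped one another. The mean log2 change was -1.41 ± 0.57 (SD, n = 3).

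Set beside all miRNAs that met the count minimum, both members were near the lower end of the changes. In depleted libraries miR-144-3p had the third lowest mean log2 change of 305 miRNAs and miR-451a stood at position 13 from the bottom, against a median of 0.18. In undepleted libraries they stood first and at position 5 of 109, against a median of 0.02. Since the cluster was chosen for this contrast, these positions describe it and support nothing. Size factors or TMM factors in place of totals moved the median in depleted libraries from 0.18 to 0.05 and 0.03; they shift every miRNA by the same amount and cannot alter a position.

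**Figure D2:**
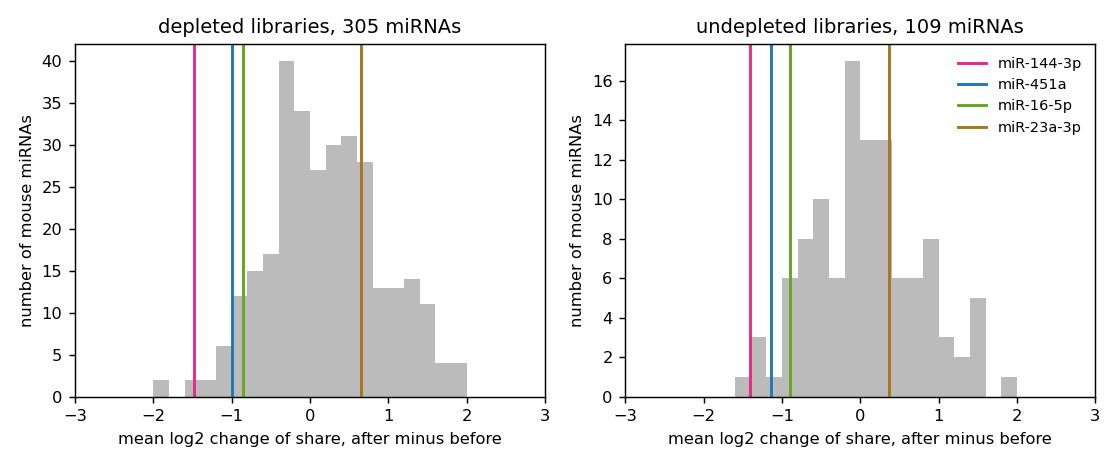
Histogram of the mean log2 change of share (after minus before, 3 mice) of mouse miRNAs in depleted (left) and undepleted (right) libraries, with vertical lines at 4 named miRNAs. miR-144-3p (-1.48 and -1.41) and miR-451a (-0.99 and -1.14) lie in the lower tail, and miR-23a-3p (0.65 and 0.37) above 0.

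The hemolysis ratio was then taken as the count of miR-451a over that of miR-23a-3p (MIMAT0000532). In depleted libraries before injection it was 113 in mouse 1046, 127 in mouse 1047 and 73.3 in mouse 1069. After injection it was 43.2, 34.8 and 22.9. Undepleted libraries gave 66.6, 81.0 and 60.8 before and 34.0, 25.4 and 16.5 after injection. The ratio was thus lower after injection in 3 of 3 mice in both kinds of aliquot, with no overlap of the groups. Of the mouse miRNAs compared with miR-23a-3p, 45.7% of 304 in depleted and 38.0% of 108 in undepleted libraries were lower in each mouse. How many of them had groups without overlap was not counted. The mean log2 change of the ratio was -1.64 ± 0.24 in depleted and -1.51 ± 0.48 in undepleted libraries (SD, n = 3 each). As geometric means the ratio was 3.13-fold and 2.85-fold lower. These are ratios of read counts, and cut-offs in use for cycle differences in PCR do not carry over to them. Free hemoglobin, which the study measured in all sera, was not analysed here.

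The change of this ratio had contributions from its numerator and its denominator. The share of miR-23a-3p itself was 0.135% ± 0.016 before injection and 0.212% ± 0.024 after it in depleted libraries (SD, n = 3 each), and this share was higher after injection in 3 of 3 mice. In undepleted libraries it rested on as few as 33 counts, and its share was 0.151% ± 0.005 before and 0.196% ± 0.025 after injection (SD, n = 3 each). Of the mean log2 change of -1.64 in depleted libraries, -0.99 belonged to miR-451a and 0.65, with opposite sign, to miR-23a-3p.

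A pair of other miRNAs that red blood cells are rich in could be matched to an accession. miR-16-5p (MIMAT0000527), which many tissues express besides red blood cells, had a share of 12.0% ± 0.990 in depleted libraries before injection and of 6.69% ± 1.04 after it (SD, n = 3 each). Its count relative to miR-23a-3p was 2.83-fold lower after injection in depleted and 2.40-fold lower in undepleted libraries. miR-486-5p (MIMAT0002177), an erythroid miRNA and the largest entry of the human tables, was 2.83-fold and 2.09-fold lower relative to the human entry for miR-23a-3p. miR-144-3p was 4.37-fold and 3.43-fold lower on this scale. Only these 2 of the 13 names on the erythrocyte list were matched, so the rest of that list is not described here. These 2 and both members stood lower against miR-23a-3p after injection in 3 of 3 mice and in both aliquots, on a denominator they share. The same was true of 45.7% of all 304 mouse miRNAs compared with it in depleted and 38.0% of 108 in undepleted libraries, so a lower ratio in each mouse was common. With miR-16-5p as the denominator, the mean log2 change of miR-451a was only -0.14 ± 0.10 in depleted and -0.25 ± 0.22 in undepleted libraries (SD, n = 3 each), so that most of its change ran alongside that of miR-16-5p.

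**Figure D3:**
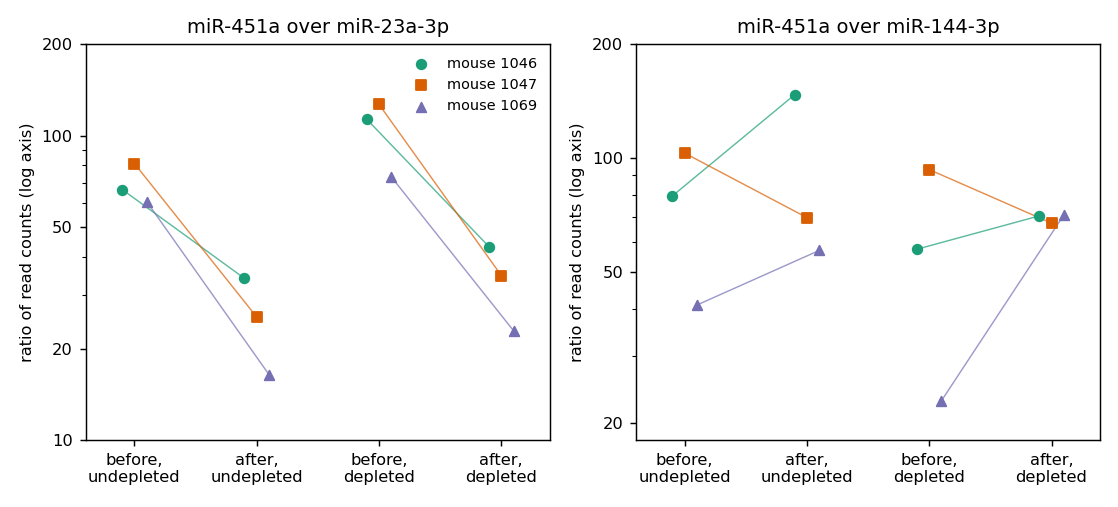
Ratio of read counts (log axes) of miR-451a to miR-23a-3p (left) and of miR-451a to miR-144-3p (right) in each library, with lines joining the sera of 1 mouse. The left ratio is lower after injection in every mouse, whereas the right one moves in either direction and meets between 67.4 and 70.8 in the depleted libraries after injection.

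To see whether the cluster behaves as a unit in serum, its members were compared with each other. In depleted libraries before injection there were 57.5 reads of miR-451a per read of miR-144-3p in mouse 1046, 93.3 in mouse 1047 and 22.9 in mouse 1069, a spread of 4.07-fold. After injection the values were 70.4, 67.4 and 70.8, a spread of 1.05-fold. The undepleted aliquots gave 79.5, 103 and 41.0 before injection and 147, 69.7 and 57.1 after it. Before injection the mice thus kept the same order in both aliquots, with mouse 1069 lowest and mouse 1047 highest. After injection the order differed between aliquots, where the undepleted values rested on 28 to 35 reads of miR-144-3p. Ratios of reads of 2 different sequences also carry the ligation bias of the library kit, and do not give the ratio of molecules.

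The members did not rank the mice alike. Before injection, in both aliquots, miR-144-3p was highest in mouse 1069 and lowest in mouse 1047, and miR-451a was highest in mouse 1047 and lowest in mouse 1069. After injection the depleted libraries ranked the mice 1046, 1047 and 1069 from high to low for both members. For the within-mouse change in depleted libraries, mouse 1069 had the largest change of miR-144-3p (log2 -2.67) and mouse 1047 the smallest (-0.69), whereas mouse 1047 had the largest change of miR-451a (-1.16) and mouse 1046 the smallest (-0.78). In undepleted libraries mouse 1069 had the largest change of both members (-1.83 for miR-144-3p and -1.36 for miR-451a, the latter beside -1.33 in mouse 1047). The smallest change was again in mouse 1047 for miR-144-3p (-0.76) and in mouse 1046 for miR-451a (-0.75). The members thus differed there in the mouse of the smallest change, but not in that of the largest.

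**Figure D4:**
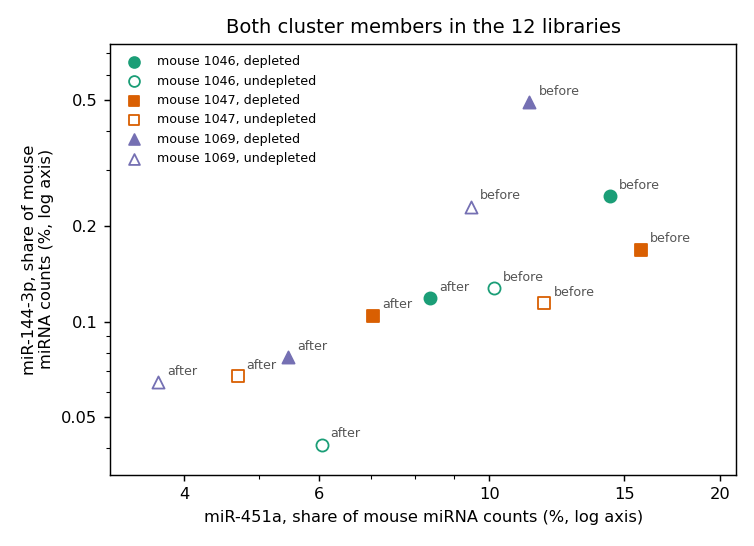
Share of miR-144-3p against that of miR-451a (percent of mouse miRNA counts, log axes) in the 12 libraries, with filled symbols for depleted and open ones for undepleted aliquots. The sera drawn after injection lie at the lower left, and the serum of mouse 1069 before injection stands highest for miR-144-3p at a miR-451a share of 11.3% or 9.45%.

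The miRNAs whose pattern was most like that of each member were looked up over the 12 libraries, on log2 shares centred on the mean of each kind of aliquot, among 108 miRNAs with at least 4 counts in every library. For miR-451a the nearest was miR-16-5p with Pearson's r of 0.99, followed by MIMAT0000540 with 0.98, and the first 5 all reached at least 0.95. For miR-144-3p the nearest were MIMAT0000526 (r = 0.87) and MIMAT0000247 (0.86), and the first 5 reached at least 0.83. The members themselves correlated with r of 0.69, which put miR-144-3p at position 20 on the list of miR-451a, and miR-451a at position 17 on that of miR-144-3p. The libraries come from 6 sera of 3 mice and share the change after injection, so these values are descriptions.

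The effect of the depletion was not used to choose the cluster and could be tested. The 6 sera came from 3 mice, and the tests treated sera of the same mouse as independent. Both members took a larger share in the depleted aliquot in 6 of 6 sera. How many of all miRNAs, or of ratios between them, kept 1 direction in 6 of 6 sera was not counted. For miR-144-3p the log2 difference between the aliquots of a serum ranged from 0.26 to 1.53, with a mean of 0.84 ± 0.45 (SD, n = 6). For miR-451a it ranged from 0.25 to 0.59, with a mean of 0.47 ± 0.12 (SD, n = 6). miR-16-5p went the other way in 6 of 6 sera, with a mean of -0.44 ± 0.06 (SD, n = 6), and miR-23a-3p was higher in 3 of 6 (-0.03 ± 0.18, SD, n = 6).

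In the DESeq2 fit over all 874 mouse miRNAs, miR-144-3p was higher in depleted libraries by 0.75 on the log2 scale (standard error 0.22, adjusted p = 0.00757), under the 2-fold limit set for a call. That limit together with an adjusted p under 0.05 was passed by 7.43% of the 417 miRNAs that received an adjusted p (4.32% higher in depleted libraries), and by neither member. The adjusted p alone was passed by 12.9% of them, and by 7.67% in the direction of miR-144-3p. Without mouse 1046 the log2 fold change of miR-144-3p was 0.56 and its DESeq2 adjusted p 0.380. Its DESeq2 adjusted p was 0.00551 without mouse 1047 (log2 fold change 0.89) and 1.34e-04 without mouse 1069 (0.76). The estimate for miR-451a was 0.35 on the same scale (standard error 0.19) and did not pass when sera were treated as unpaired (adjusted p = 0.296, DESeq2).

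Pairing the aliquots by serum lowered the adjusted p of both members but brought neither past the 2-fold limit. When each serum was a replicate block, the estimate for miR-451a was the same 0.35 at a standard error of 0.05 (DESeq2 adjusted p = 3.18e-10), and that of miR-144-3p was 0.71 (standard error 0.16, DESeq2 adjusted p = 5.03e-05). The adjusted p alone was passed by 22.3% of 332 miRNAs in that fit, and together with the 2-fold limit by 8.43%. TMM factors in DESeq2 brought miR-144-3p past the 2-fold limit (log2 fold change 1.03, adjusted p = 2.39e-05), as was the case for 11.0% of 383 miRNAs, and miR-451a to a log2 fold change of 0.61 (adjusted p = 0.0328). In edgeR miR-144-3p was called as well (1.05, adjusted p = 7.68e-05), among 5.03% of 874 miRNAs, and miR-451a had a log2 fold change of 0.62 (adjusted p = 0.00809). In the human tables, on the same reads, miR-144-3p stayed under the 2-fold limit with both (0.92 with TMM factors, 6.44% of 388 miRNAs called; 0.94 in edgeR, 6.22% of 466 called). Leaving out mouse 1069 from the unpaired fit gave miR-451a a DESeq2 adjusted p of 0.0253 at 0.35. Without mouse 1046 the DESeq2 adjusted p of miR-451a was 0.711 (log2 fold change 0.34), and without mouse 1047 it was 0.578 (0.35). Both members stood higher in depleted libraries under each of these settings, miR-451a by less than 2-fold.

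**Figure D5:**
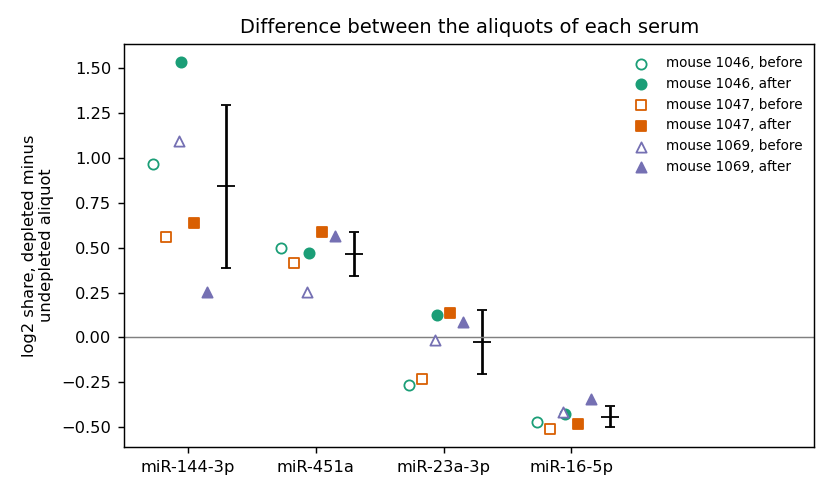
Difference in log2 share between the depleted and undepleted aliquot of each of the 6 sera for 4 miRNAs, with the mean and SD (n = 6) in black. All 6 values lie above 0 for miR-144-3p and miR-451a and below 0 for miR-16-5p, and those of miR-23a-3p lie on both sides.

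The hemolysis ratio was also compared between the aliquots. It was higher in the depleted aliquot in 6 of 6 sera, by a log2 difference of 0.49 ± 0.18 (SD, n = 6), or 1.41-fold. An exact sign-flip permutation test, two-sided and paired by serum, gave p = 0.03125, the smallest value 6 pairs allow, and 0.0625 after Benjamini-Hochberg adjustment over the 2 ratios tested, which does not pass 0.05. This test too treated sera of the same mouse as independent. The second ratio, miR-451a over miR-144-3p, was lower in the depleted aliquot in 5 of 6 sera by a log2 difference of -0.38 ± 0.51 (SD, n = 6), and the same exact permutation test gave p = 0.156 before and after adjustment. Against miR-16-5p, miR-451a was higher in the depleted aliquot in 6 of 6 sera, from 0.63 to 1.14 reads per read of miR-16-5p before injection and from 0.53 to 1.03 after it as geometric means. In the undepleted aliquots miR-16-5p was the more abundant of the pair in 6 of 6 sera; in the depleted aliquots miR-451a was, except after injection in mouse 1069, where the ratio was 0.972.

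Whether the change after injection differed between depleted and undepleted libraries was tested as an interaction of time point and depletion. The log2 interaction was -0.23 (standard error 0.47) for miR-144-3p and 0.03 (standard error 0.41) for miR-451a, both with a DESeq2 adjusted p of 0.998. None of the 874 mouse miRNAs passed (0.00%), with 3 at an unadjusted p under 0.05 in DESeq2, and edgeR called 0, with 11 at an unadjusted p under 0.05. With each serum as a replicate block the interaction was -0.14 (standard error 0.31) for miR-144-3p and 0.06 (standard error 0.11) for miR-451a, again with no miRNA called and 8 at an unadjusted p under 0.05 in DESeq2. At these standard errors the lack of a call does not show that the changes were alike. Both kinds of aliquot come from the same sera, so neither is an independent repeat of the other.

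The human tables list the same reads again. The counts of miR-144-3p differed by 1 between the mouse and human entries over the 12 libraries, out of 17125, and those of miR-451a by 7 out of 1012848. The human entries were counted as fully in the sera drawn before any human cell was implanted, with 103 or more reads of human MIMAT0000436 in the undepleted aliquots of mice 1046 and 1047 and 49 in that of mouse 1069. The entries of these miRNAs therefore do not separate the species of origin. The shares of the human entry of miR-451a in depleted libraries of mice 1046, 1047 and 1069 were 7.45%, 7.44% and 6.12% before injection. They were 5.31%, 4.54% and 3.91% after injection, a mean log2 change of -0.62 ± 0.11 (SD, n = 3). These groups did not overlap, which held in this direction for 6.61% of 227 human miRNAs, and in undepleted libraries, where the human entries of both members did not overlap either, for 10.5% of 95. The change was smaller than on the mouse scale with near-identical counts, since the table totals differ: over the 227 human miRNAs the median log2 change was 0.44 with totals and -0.04 with size factors, and on the latter scale miR-451a changed by -1.10 and miR-144-3p by -1.59. For depletion the human DESeq2 fit, on the same reads as the mouse fit, gave miR-144-3p a log2 fold change of 0.76 (standard error 0.22, adjusted p = 0.00428) and miR-451a 0.38 (standard error 0.18, adjusted p = 0.148). It called 9.66% of 238 human miRNAs (5.88% higher in depleted libraries) and neither of these. The adjusted p alone was passed by 19.3% of them (11.8% higher), and 9.24% of 249 were called with the replicate block.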

How the data were processed

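Small RNA of 12 serum libraries (TruSeq small RNA kit, 15 PCR cycles) was quantified by the authors, who deposited raw read counts per mature miRNA, as a mouse and a human table for each library. Per the labels and the study's methods, adaptors were trimmed with cutadapt 1.8.1, reads were filtered on length and quality, mapped with Bowtie 1.1.2 without mismatches and assigned by miRBase coordinates on GRCm38/mm10 or GRCh37/hg19. The counting of reads with several loci is not given in the sources used here. miRNAs without reads are not listed and were taken as 0.

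The members and the gene lists were chosen with earlier results of these data known. The tables hold accessions only. The names of the members and of miR-23a-3p came with the rule that chose them, miR-16-5p from the study's text, and miR-486-5p as the miRNA named as dominant in the human tables. Human entries of miR-16-5p and miR-23a-3p were taken as those nearest in counts (0 and 3 counts apart). Of 27 names on lists of erythrocyte, leukocyte, platelet, liver and muscle miRNAs, 2 could be matched, both on the erythrocyte list of 13; the other lists and miR-144-5p were not analysed here. The rule for named miRNAs was the members, miR-23a-3p, the matched list members and the 5 most similar miRNAs per member, of which at most 2 accessions are printed.

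Depletion and its interaction with time point were tested in DESeq2 1.42.0 (R 4.3.3; Wald test, prior on fold changes except for the interaction, independent filtering, time point as covariate), adjusted by Benjamini-Hochberg over each table. A call needed an adjusted p under 0.05 and at least 2-fold (the interaction the adjusted p alone). The scripts were tested on simulated data. Also tried were TMM factors, the quasi-likelihood test of edgeR 4.0.16, a filter of 4 counts in 3 libraries, no prior, the replicate block and leaving out each mouse. The change after injection was described as log2 ratios of shares within mice. Python 3.11.15 and SciPy 1.17.1 were used for ratios and exact tests. Aliquots are paired by serum and sera by mouse, both from the labels: the deviations of 2 libraries from their groups' means had an average Pearson's r of 0.86 (0.70 to 0.95) for the aliquots of a serum, and of -0.02 (depleted) and -0.09 (undepleted) for the sera of a mouse, over miRNAs with at least 50 counts in every library. SDs over n = 3 measure the spread between the 3 mice.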

Additional observations from a re-analysis of the deposited data

How the results depend on the processing

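The lower level after injection kept its direction in 56 of 56 alternatives to the changes of both members and of the hemolysis ratio, with log2 values from -2.13 to -0.14. These alternatives reuse the same sera and the contrast that chose the cluster, so the tally describes the processing and supports nothing. The means with 1 mouse left out had to be negative, since the values were lower in 3 of 3 mice. For miR-451a in depleted libraries the value of -0.99 became -1.22 with a total that leaves out the members and miR-16-5p, -1.64 over miR-23a-3p, -0.62 in the human tables and -1.20 as a DESeq2 fold change, and in undepleted libraries -1.51 over miR-23a-3p. Over miR-16-5p, a denominator chosen after seeing the data, it was -0.14 in depleted and -0.25 in undepleted libraries, and miR-144-3p changed by -0.51 in undepleted ones. With the mouse as a replicate block the DESeq2 log2 fold changes in depleted libraries were -1.59 for miR-144-3p and -1.19 for miR-451a. Leaving out 1 mouse gave -1.87 to -0.88 for miR-144-3p and -1.10 to -0.91 for miR-451a in depleted libraries.

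For the depletion, miR-144-3p in the mouse tables passed the 2-fold limit with edgeR (log2 fold change 1.05, adjusted p = 7.68e-05) and with TMM factors in DESeq2 (1.03) but not in the human tables (0.94 and 0.92), and on the adjusted p alone it was called at its values of 0.75 (mouse) and 0.76 (human). Called miRNAs numbered 31 in the mouse and 23 in the human tables, and 54 and 46 on the adjusted p alone. Leaving out 1 mouse gave 21 to 34 and 17 to 25, and with the serum as a replicate block there were 28 and 23. On the adjusted p alone under that block, a rule chosen after seeing the data, there were 74 and 61, with miR-144-3p (0.71 and 0.74) and miR-451a (0.35 and 0.38) among them. TMM factors moved the mouse split from 18 higher and 13 lower to 32 higher and 10 lower. The value of miR-23a-3p turned from -0.15 to 0.11 with edgeR and 0.10 with TMM factors. Without mouse 1069 the interaction turned sign for miR-144-3p in the mouse and human tables and for miR-451a in the mouse tables. Ranges over the mice left out were -0.57 to 0.22 (mouse) and -0.55 to 0.27 (human) for miR-144-3p. For miR-451a they were -0.0051 to 0.11 (mouse) and 0.035 to 0.095 (human). In edgeR the interaction of miR-451a was -0.085 (mouse) and -0.00051 (human). With no replicate block the hemolysis ratio, 0.49 higher in depleted libraries, gave p = 0.374 in an exact permutation test of 6 against 6 libraries. Depth limited miR-144-3p in undepleted libraries, where the 95% Wilson interval reached up to 37.7% of the share to either side.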
